A study of Mus musculus with 8 samples.

Results

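Genes of autophagy and of the lysosome were followed in mouse liver by RNA sequencing. They are a list of 44 genes, each taken as the row of the deposited table whose name equals the gene symbol, out of 21358 genes in all. The list holds 2 transcription factors, 21 genes of the autophagy machinery and 21 genes of lysosomal enzymes and membrane proteins. The 8 libraries came from mice kept for 22 weeks on fasting every other day: 4 from the feeding glucose group (FG, replicates 93, 94, 95 and 96) and 4 from the starvation glucose group (SG, replicates 101, 103, 104 and 105). As far as the series text says, the groups differ in whether glucose intake fell in the fed or the fasted state, both share the fasting regimen, and the animals model metabolic dysfunction. The sources used here do not state strain, sex, age, diet, hour of collection or time since the last meal, and any such difference and the glucose schedule cannot be told apart. Nothing in the labels ties the 4 libraries of a group to separate animals, so the p-values speak to the spread among libraries, which may be technical.

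Macroautophagy delivers cytoplasm to the lysosome for breakdown, and in liver it supplies amino acids, glycogen-derived sugar and lipid during fasting. Under nutrient shortage, the kinase ULK1 is activated by AMPK and freed from inhibition by mTORC1, and it switches on a lipid kinase complex holding beclin 1 and VPS34. The resulting lipid mark recruits WIPI proteins, and a ubiquitin-like conjugation system attaches LC3 and GABARAP proteins to the growing membrane, where receptors such as p62 tether cargo. After fusion, cathepsins, glycosidases and lipases digest the content in a compartment acidified by the V-ATPase. The transcription factors TFEB and TFE3, held in the cytoplasm by mTORC1 in the fed state, bind an E-box with the letters TCACGTG in many promoters of lysosomal genes, and much of their control lies in localization and not in their transcript level.

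**Figure D1:**
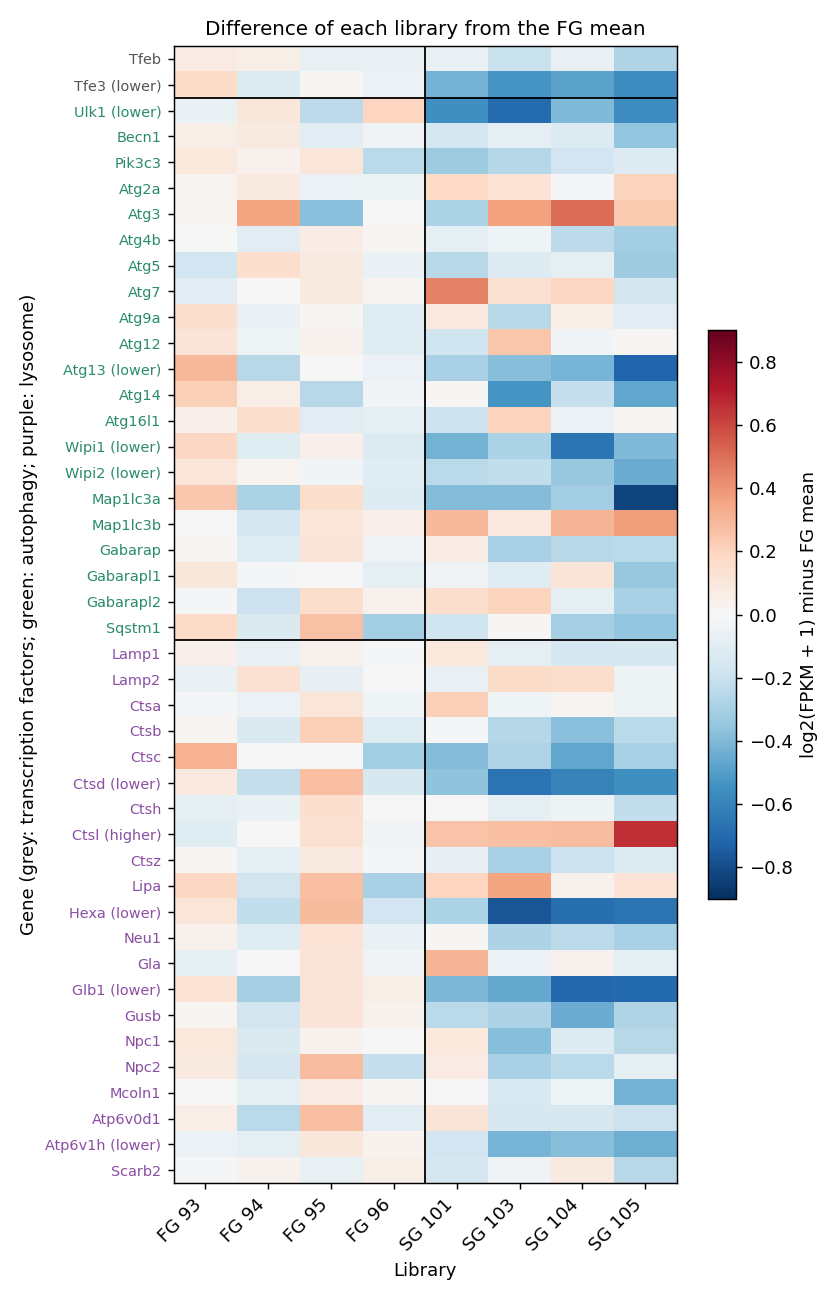
Heat map of the 44 genes in the 8 libraries. Colour gives log2(FPKM + 1) of each library minus the mean of the 4 FG libraries; rows are grouped as transcription factors, autophagy machinery and lysosomal proteins, and "lower" or "higher" beside a gene marks a limma adjusted p below 0.05. Ctsl is red in all 4 SG libraries, and Tfe3, Ulk1, Ctsd, Hexa and Glb1 are blue in all 4.

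The libraries held 36545128 to 41977438 counted fragments, recovered from the steps of the deposited FPKM values (fragments scaled to the length of the gene and to the total of the library). The 44 genes rested on 143 (Gla) to 32901 fragments in a library. Hepatocyte markers summed to 55849 to 73161 FPKM per library, with 2 of 8 (Apoa1 and Serpina1a) called higher. Apoa1 lost that call in every fit that left out 1 library, and Serpina1a in none. All 44 genes passed the filter of at least 1 FPKM in at least 4 of the 8 libraries, as did 9867 genes in all. Values were compared as log2(FPKM + 1) with limma and Benjamini-Hochberg adjustment over those 9867 genes, and genes with an adjusted p below 0.05 are named as called. A log2 difference is SG minus FG on that scale, which understates changes of low genes, and SE is limma's moderated standard error. The median difference over all tested genes was -0.135, and median-ratio scaling between libraries moved it to 0.006. In bulk tissue, fewer cells of a type and less RNA per cell cannot be told apart.

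Few transcripts of the pathway passed the test between the groups, and most of those that did were lower in SG. Of the 44 genes, 9 fell (Tfe3, Ulk1, Atg13, Wipi1, Wipi2, Ctsd, Hexa, Glb1 and Atp6v1h) and 1 rose (Ctsl), while 34 did not pass. That is 20.5% lower and 2.27% higher, where 15.6% of all tested genes were called lower and 3.73% higher, so both shares lay near the background. The autophagy machinery had 4 of 21 genes lower and 0 higher, and the lysosomal proteins 4 of 21 lower and 1 higher. At an unadjusted p below 0.05, 6 of 21 autophagy and 7 of 21 lysosomal genes would pass, where 35.6% of all tested genes did. Limma voom on recovered fragments called 4 lower and 0 higher in the autophagy machinery and 5 and 0 in the lysosomal proteins. It called 1517 lower and 346 higher among the 9867 tested genes. The median log2 difference was -0.18 for the autophagy machinery and -0.15 for the lysosomal proteins, beside -0.135 for all genes. In 12 of the 44 genes all 4 SG values lay below all 4 FG values (21.8% of all tested genes did so), and in 1 gene all lay above (4.35% of all). After median-ratio scaling, 1 of the 44 was called lower and 2 higher, where 4.74% and 5.23% of all genes were. The medians then were -0.008 and 0.014. Without FG 93 the numbers called were 2 lower and 0 higher. They were 4 and 0 without FG 95, 5 and 0 without SG 103, and 4 and 0 each without SG 104 or SG 105. Over all tested genes, 1544 were called lower with all libraries, and 610, 805, 861, 833 and 805 in these fits in turn. The loss of calls was thus not particular to the 44 genes. Without FG 94 or FG 96 the higher call was also lost.

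**Figure D2:**
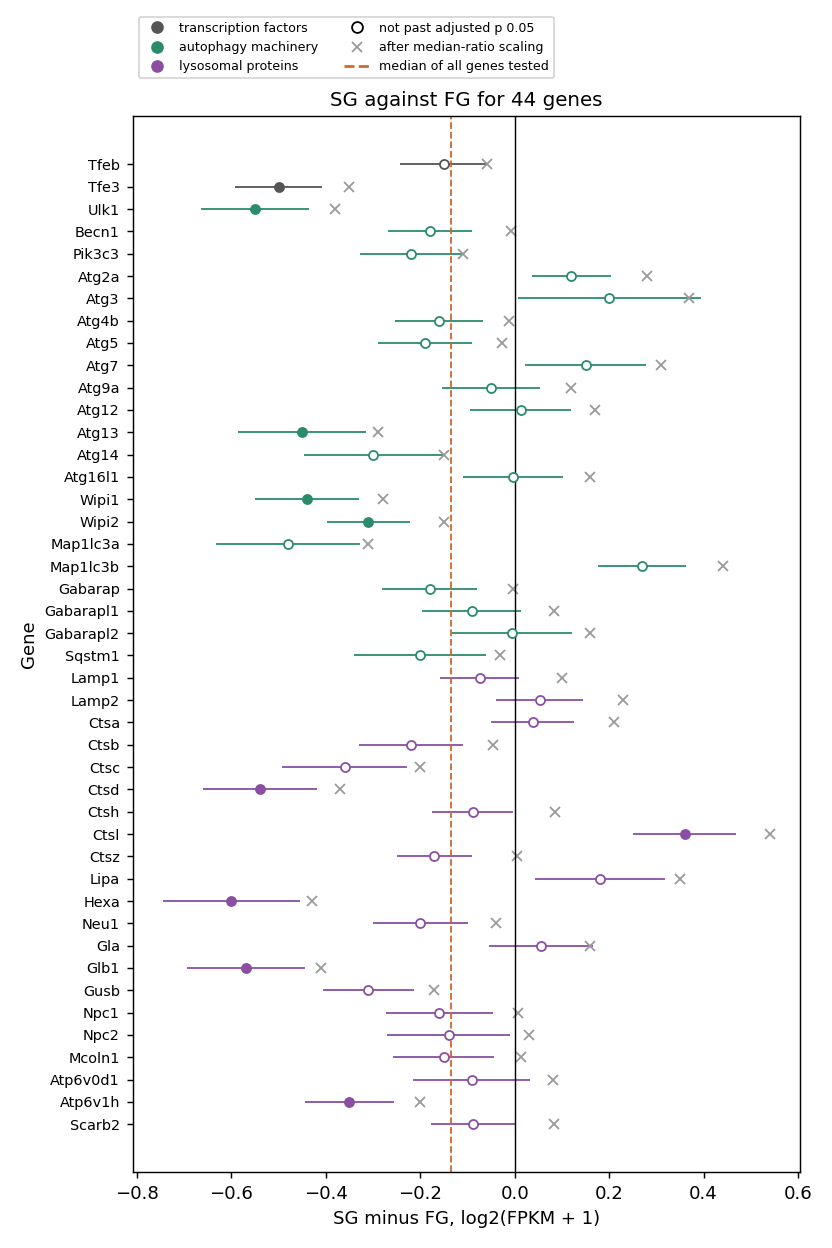
Difference between SG and FG in log2(FPKM + 1) for the 44 genes, with limma SE as bars (n = 4 each). Filled points passed an adjusted p of 0.05, open points did not, crosses give the difference after median-ratio scaling, and the dashed line is the median of all tested genes at -0.135. The points spread on both sides of the dashed line, from -0.60 for Hexa to 0.36 for Ctsl.

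The 44 genes spanned a wide range of levels, which FPKM compares per length. Lamp1, the main glycoprotein of the lysosomal membrane, was highest with a mean of 334 FPKM over the 8 libraries, followed by the aspartic protease gene Ctsd at 219 and the ubiquitin-like genes Gabarap at 183 and Gabarapl1 at 167 FPKM. Neighbours in this order overlapped between libraries: Lamp1 at its lowest (306 FPKM) was below Ctsd at its highest (311 FPKM), and Gabarap (158 to 210) overlapped with Ctsd and with Gabarapl1 (136 to 186). The cathepsin genes Ctsh, Ctsz, Ctsl and Ctsb followed at 140, 139, 126 and 114 FPKM, and the ranges over libraries of these 4 genes overlapped. At the low end were Tfeb at 1.16, Gla, alpha-galactosidase, at 1.43 and Pik3c3, the lipid kinase VPS34, at 1.66 FPKM, and the ranges of these 3 also overlapped.

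Stretches of 4 promoters are printed because they hold the element through which TFEB and TFE3 are known to act: Ctsd and Glb1, which fell, and Lamp1 and Mcoln1, which did not pass the test. RefSeq promoter windows (GRCm38.p6, 250 bases before to 50 after a start) were found for 35 of the 44 genes and not for Becn1, Pik3c3, Atg12, Atg16l1, Map1lc3a, Ctsb, Ctsh, Npc1 and Atp6v1h. The sequences read 5′ to 3′ on the gene's strand, with the E-box CACGTG and a flanking T before or A after it in capitals. For Ctsd and Mcoln1 only 30 bases around a site are shown, because GENCODE has transcripts that start upstream of the RefSeq start.
Ctsd, chr7:142387908-142387937, minus strand: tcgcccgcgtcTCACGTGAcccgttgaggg
Glb1, chr9:114401008-114401075, plus strand: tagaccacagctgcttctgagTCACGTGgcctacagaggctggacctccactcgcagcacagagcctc
Lamp1, chr8:13159086-13159160, plus strand: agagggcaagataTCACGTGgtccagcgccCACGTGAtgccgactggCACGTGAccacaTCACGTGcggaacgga
Mcoln1, chr8:3500426-3500455, plus strand: ccttagaaagggtcgcgcttgTCACGTGtt

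The first capital of the site shown lies 99 bases before the RefSeq start for Ctsd, 49 bases for Glb1 and 72 bases for Mcoln1. Ctsd and Mcoln1 each hold 1 further site in the window that is not printed, and Lamp1 holds 4 sites, the first of them 62 and the last 16 bases before the start. TCACGTG or its reverse complement CACGTGA was found in the windows of 10 of the 35 genes (28.6%: Atg3, Atg7, Atg14, Lamp1, Ctsa, Ctsd, Gla, Glb1, Mcoln1 and Atp6v0d1), against 4.29% of the 27025 genes with a window. The plain E-box CACGTG, which is its own reverse complement and lies within the longer letters, was in 12 of 35 (34.3%, with Atg5 and Ctsl added) against 8.09%. Per window of 300 bases, the shares over all 32851 windows were 3.77% for TCACGTG and 7.15% for CACGTG. Of the 10 genes with TCACGTG, 2 were called lower (Ctsd and Glb1) and 8 were not called, with a median log2 difference of -0.08. Of the 25 without it, 6 were called lower and 1 higher, with a median of -0.17. Over all tested genes, 15.6% were called lower and 3.73% higher, with a median of -0.135. The difference between genes with and without the motif was not tested. These are descriptions of letters in a window and say nothing of whether a factor was bound.

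**Figure D3:**
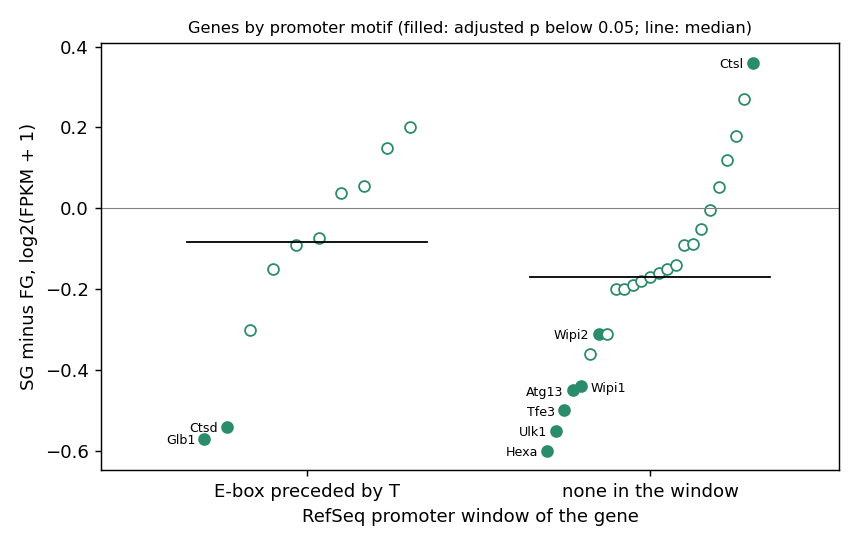
Log2 difference between SG and FG for the 35 genes with a RefSeq promoter window, split by whether the window holds an E-box preceded by T on either strand (10 genes) or not (25 genes). Filled points passed an adjusted p of 0.05 and carry names, and lines are medians at -0.08 and -0.17. The median of all tested genes, not drawn, was -0.135. Ctsd and Glb1 are at the lower end of the left column, and Ctsl is at the upper end of the right one.

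Of the transcription factors, Tfe3 fell. Its values were 7.51, 5.96, 6.64 and 6.33 FPKM in FG 93, 94, 95 and 96, and 4.66, 4.25, 4.44 and 4.16 FPKM in SG 101, 103, 104 and 105. No SG library reached the FG range, and the SG mean was 66.2% of the FG mean (log2 difference -0.50, SE 0.0922, limma adjusted p = 0.00962). The call was kept in each of the 8 fits that left out 1 library (adjusted p up to 0.0307) and after median-ratio scaling (adjusted p = 0.0366). Tfeb had 1.39, 1.36, 1.17 and 1.17 FPKM in FG and 1.16, 0.972, 1.17 and 0.879 FPKM in SG. Its groups lay apart only beyond the digits printed, SG 104 being just below FG 95 and FG 96 (exact two-sided permutation p = 0.0286, the smallest that the 70 assignments of 4 and 4 libraries can give), and the limma test did not pass (log2 difference -0.15, adjusted p = 0.269). Tfe3 lies on chromosome X from 7762530 to 7775202 (GRCm38, NCBI gene 209446) and Tfeb on chromosome 17 from 47737037 to 47792416. Of the genes described next, Ulk1 lies on chromosome 5 from 110784489 to 110810120, Ctsd on chromosome 7 from 142375910 to 142387827, Glb1 on chromosome 9 from 114401078 to 114474379 and Ctsl on chromosome 13 from 64361890 to 64370772.

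Among the genes that start an autophagosome, Ulk1 and Atg13 of the ULK1 complex fell. Ulk1, the initiating kinase, had 19.8, 22.2, 17.3 and 23.7 FPKM in FG and 13.7, 12.4, 15.4 and 13.7 FPKM in SG. The groups did not overlap, and the SG mean was 66.5% of the FG mean (log2 difference -0.55, SE 0.114, limma adjusted p = 0.0143). It was called in all 8 fits without 1 library (adjusted p up to 0.0394) and lost the call after median-ratio scaling (log2 difference -0.38, adjusted p = 0.0733). Atg13, the adaptor of the kinase complex, fell from 19.7, 13.2, 15.9 and 15.2 FPKM to 12.8, 11.9, 11.6 and 9.25 FPKM (log2 difference -0.45, adjusted p = 0.0465). Its groups lay apart, with FG 94 nearest to SG 101. The Atg13 call was lost without FG 93, FG 95, FG 96, SG 103, SG 104 or SG 105 (adjusted p up to 0.116) and after median-ratio scaling (0.182).

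The lipid kinase complex that follows did not pass the test. Becn1, the scaffold beclin 1, had 24.2, 24.7, 21.7 and 22.8 FPKM in FG and 20.8, 22.0, 21.4 and 18.1 FPKM in SG, and the groups overlapped at SG 103 and FG 95 (log2 difference -0.18, adjusted p = 0.19). Pik3c3 was at 1.87 ± 0.312 and 1.46 ± 0.153 FPKM, and Atg14, which directs the complex to autophagosome formation, at 6.24 ± 0.96 and 4.92 ± 1.05 FPKM (SD, n = 4 each, limma adjusted p = 0.183 and 0.179). All 5 genes of initiation and nucleation had negative log2 differences, also after median-ratio scaling, where 69.9% and 48.9% of all tested genes did. After that scaling 0 of the 5 were called, and Becn1 was at -0.008.

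Both PI3P-binding WIPI genes fell. Wipi1 had 17.6, 14.1, 15.8 and 13.9 FPKM in FG and 11.2, 12.4, 9.36 and 11.4 FPKM in SG, a mean in SG of 72.0% of that in FG (log2 difference -0.44, SE 0.111, limma adjusted p = 0.0266). Wipi2, which recruits the conjugation machinery, had 22.6, 21.2, 20.5 and 19.2 FPKM in FG and 17.5, 17.7, 16.2 and 15.0 FPKM in SG (log2 difference -0.31, adjusted p = 0.038). Neither gene's groups overlapped. Leaving out 1 library brought Wipi1 to an adjusted p of up to 0.0762, and Wipi2 to one of up to 0.108. The threshold was missed by Wipi1 when FG 93, FG 95, SG 104 or SG 105 was left out, and by Wipi2 when any library but SG 101 was. Both lost the call after median-ratio scaling (adjusted p = 0.133 and 0.274). The lipid transfer protein gene Atg2a was at 10.2 ± 0.51 and 11.2 ± 0.778 FPKM and the scramblase gene Atg9a at 19.2 ± 1.66 and 18.5 ± 2.07 FPKM (SD, n = 4 each), and neither passed limma (adjusted p = 0.326 and 0.758).

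None of the 6 genes of the conjugation enzymes was called by limma, 0 had an unadjusted p below 0.05, and limma voom called 0. Their log2 differences ran from -0.19 (Atg5) to 0.20 (Atg3), with 3 negative and 3 positive, and 2 negative and 4 positive after median-ratio scaling. Atg3, the E2-like enzyme that loads LC3 onto lipid, ranged from 21.3 FPKM in FG 95 to 40.0 FPKM in SG 104, with overlapping groups. Atg7, the E1-like enzyme, was at 7.28 ± 0.443 and 8.30 ± 1.60 FPKM. Atg12 and Atg16l1, which with Atg5 form the E3-like complex, had log2 differences of 0.013 and -0.0043.

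Of the 6 genes for ubiquitin-like proteins and the cargo receptor, 0 were called by limma, 2 had an unadjusted p below 0.05 and limma voom called 0. Map1lc3b, which encodes LC3B, had 48.2, 43.6, 52.2 and 50.1 FPKM in FG and 59.6, 51.5, 60.0 and 63.3 FPKM in SG. Apart from SG 103, which lay within the FG range, the SG libraries were above all FG libraries. Its log2 difference was 0.27 (SE 0.0936) and did not pass limma (adjusted p = 0.0748), and it passed after median-ratio scaling (0.44, adjusted p = 0.0358). Map1lc3a, which encodes LC3A, had 38.2, 26.2, 36.0 and 29.5 FPKM in FG and 24.2, 24.3, 25.6 and 17.6 FPKM in SG. Here every SG value lay below every FG value, and the log2 difference was -0.48 (SE 0.152, adjusted p = 0.0539; 0.0406 without FG 94).

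Because a ratio of 2 genes within a library does not depend on scaling between libraries, that of Map1lc3b to Map1lc3a was also taken, after the values of both had been seen, and is given without a test. It was 1.26, 1.66, 1.45 and 1.70 in FG and 2.46, 2.12, 2.34 and 3.59 in SG. The lowest SG ratio thus lay above the highest FG ratio, with means of 1.52 ± 0.204 and 2.63 ± 0.655 (SD, n = 4 each). That outcome was fixed by the ranges of the 2 genes in each group, given above, and it adds no support. The other genes of this family had overlapping groups: Gabarap was at 194 ± 12.8 and 172 ± 20.9 FPKM, Gabarapl1 at 172 ± 9.05 and 162 ± 21.0 FPKM, and Gabarapl2 at 36.1 ± 3.64 and 36.2 ± 5.68 FPKM. Gabarap passed only without SG 101 (adjusted p = 0.0485 against 0.237 with all libraries).

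Sqstm1, which encodes the cargo receptor p62, had 70.1, 56.5, 74.5 and 49.8 FPKM in FG and 54.5, 62.2, 50.2 and 48.6 FPKM in SG. The groups overlapped over most of their range (log2 difference -0.20, SE 0.14, limma adjusted p = 0.33).

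**Figure D4:**
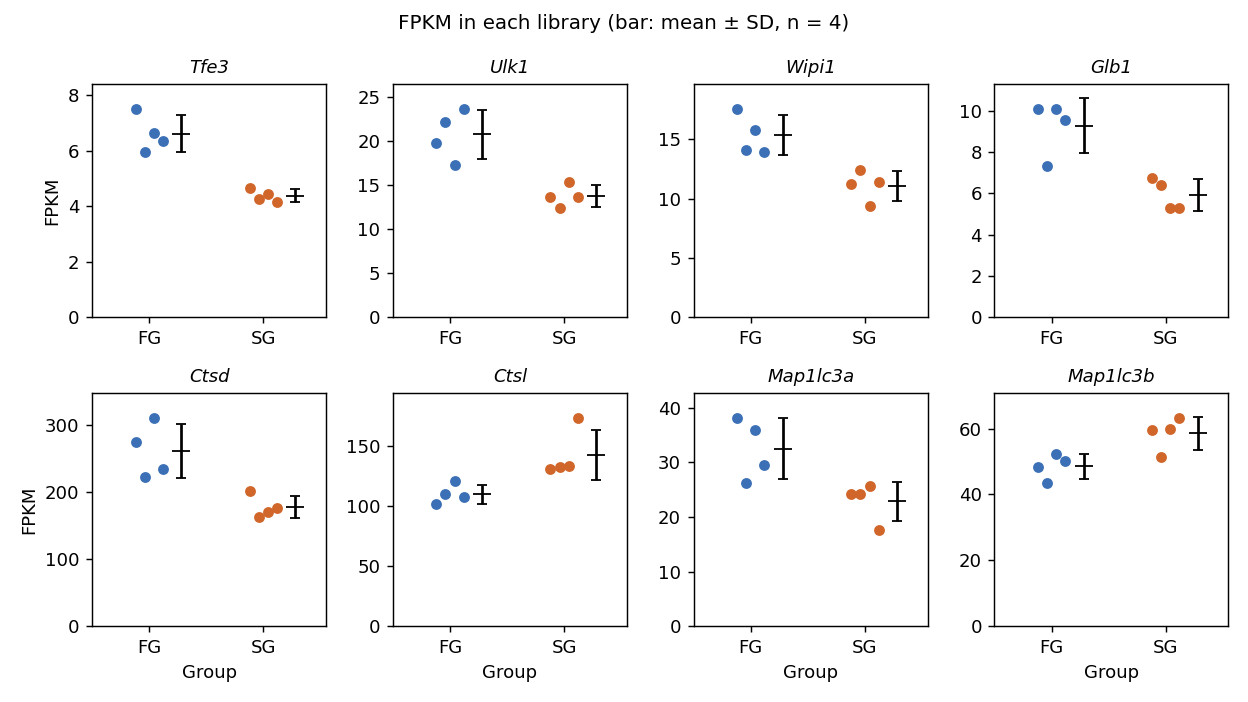
FPKM of 8 genes in each library (points, 4 per group; the bar beside them is mean ± SD, n = 4) in FG and SG, with each vertical axis starting at 0. Tfe3, Ulk1, Wipi1, Glb1, Ctsd and Map1lc3a have all SG points below all FG points, Ctsl has all above, and Map1lc3b overlaps at 1 SG library.

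Of the 7 cathepsin genes, 1 fell and 1 rose. Ctsd, the aspartic protease cathepsin D, whose promoter holds the E-box printed for it, had 275, 223, 311 and 234 FPKM in FG and 201, 163, 170 and 176 FPKM in SG. The SG mean was 68.1% of the FG mean, without overlap (log2 difference -0.54, SE 0.121, limma adjusted p = 0.0178; 0.0555 without FG 93 and 0.107 after median-ratio scaling). Ctsl, the cysteine protease cathepsin L, had 102, 110, 121 and 108 FPKM in FG and 131, 133, 134 and 174 FPKM in SG. All SG values were higher than all FG values, 3 of them close together and SG 105 well above (log2 difference 0.36, SE 0.109, adjusted p = 0.0458). The Ctsl call was kept after median-ratio scaling (0.54, adjusted p = 0.0287). It was lost without any library except SG 101 (adjusted p up to 0.124), with quantile normalization, with no filter on low values, without the mean-variance trend and with limma voom (0.0503). Taken after these values had been seen, the ratio of Ctsl to Ctsd within a library was 0.371, 0.494, 0.388 and 0.461 in FG and 0.655, 0.813, 0.786 and 0.985 in SG, without overlap. That outcome was fixed by the values above, as every SG value was higher for Ctsl and lower for Ctsd, and it adds no support. Of 4 ratios computed, that of Map1lc3b to Ulk1 also had no overlap (2.38 ± 0.464 in FG and 4.25 ± 0.306 in SG, SD, n = 4 each). That too was fixed by the ranges of these genes in each group, and it adds no support. The ratio of Lamp2 to Lamp1 overlapped (0.218 ± 0.0231 and 0.239 ± 0.0349, SD, n = 4 each).

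**Figure D5:**
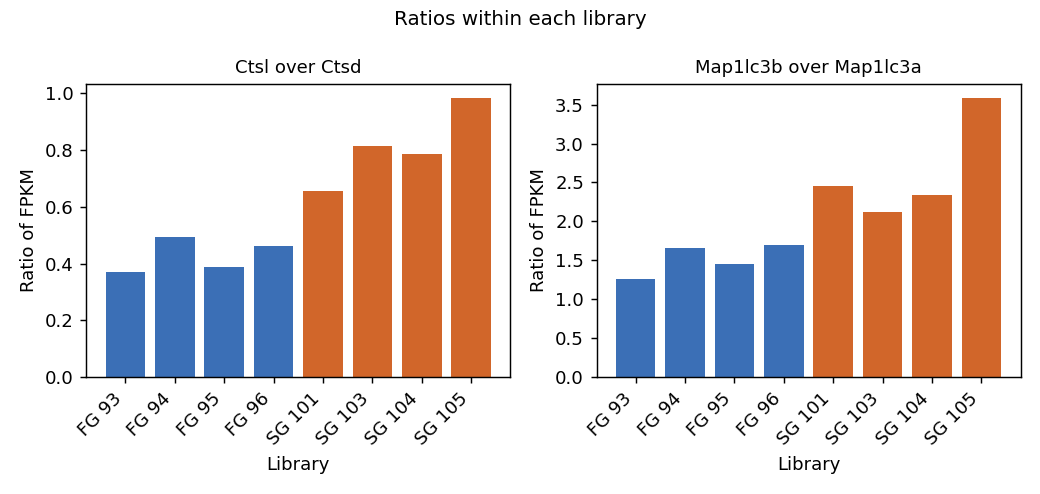
Ratio of FPKM within each library for 2 of the 4 ratios computed, Ctsl over Ctsd (left) and Map1lc3b over Map1lc3a (right), FG in blue and SG in orange, axes from 0. All SG bars are above all FG bars in both panels, with SG 105 highest at 0.985 and 3.59. In both panels this was fixed by the ranges of the 2 genes in each group, and it adds no support.

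The remaining cathepsin genes had overlapping groups. Ctsb, an abundant cysteine protease, had 124, 112, 142 and 113 FPKM in FG and 122, 102, 93.8 and 103 FPKM in SG, with SG 101 inside the FG range (log2 difference -0.22, limma adjusted p = 0.183). Ctsc, which activates serine proteases of immune cells, was at 7.24 ± 1.47 and 5.37 ± 0.407 FPKM (SD, n = 4 each, limma adjusted p = 0.0873; 0.0404 without FG 96). Ctsa, Ctsh and Ctsz had log2 differences of 0.038, -0.089 and -0.17, and after median-ratio scaling, of 0.21, 0.085 and 0.0039, so that Ctsh and Ctsz changed sign.

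Among glycosidases and the acid lipase, Hexa and Glb1 fell. Hexa, the alpha subunit of beta-hexosaminidase, had 35.0, 27.7, 39.6 and 28.7 FPKM in FG and 26.4, 18.6, 19.8 and 20.2 FPKM in SG, with SG 101 just below FG 94 (log2 difference -0.60, SE 0.145, limma adjusted p = 0.0232). Glb1, the lysosomal beta-galactosidase and another gene with that E-box, had 10.1, 7.31, 10.1 and 9.57 FPKM in FG and 6.72, 6.41, 5.27 and 5.28 FPKM in SG (log2 difference -0.57, SE 0.125, adjusted p = 0.0174). Neither gene's groups overlapped. The Hexa call was lost without FG 93, FG 95, SG 103, SG 104 or SG 105 (adjusted p up to 0.0693) and the Glb1 call without FG 93 (0.0537), and both after median-ratio scaling (0.106 and 0.0734). Gusb, beta-glucuronidase, was at 4.39 ± 0.439 and 3.35 ± 0.27 FPKM, with all SG values below all FG values, and just missed the threshold (log2 difference -0.31, adjusted p = 0.054). It passed without FG 94 or SG 101 (lowest adjusted p = 0.0467) and with limma voom (0.038). Lipa, the acid lipase that frees fatty acids and cholesterol from lipoproteins and lipid droplets, had 82.5, 64.3, 87.1 and 58.8 FPKM in FG and 82.6, 92.7, 74.0 and 78.5 FPKM in SG. Its FG libraries spread more widely than its SG libraries, which lay within or just above them (log2 difference 0.18, adjusted p = 0.395).

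Among the 8 membrane and transport proteins, 1 fell. That was Atp6v1h, a regulatory subunit of the V-ATPase's catalytic sector, which went from 9.32, 9.10, 10.5 and 9.95 FPKM to 8.50, 7.02, 7.20 and 6.90 FPKM, without overlap (log2 difference -0.35, SE 0.0937, limma adjusted p = 0.0315). That call was lost without FG 93, FG 95, FG 96, SG 103, SG 104 or SG 105 (adjusted p up to 0.0801) and after median-ratio scaling (0.255). Atp6v0d1, a subunit of the proton channel sector, was at 47.6 ± 7.50 and 44.4 ± 4.62 FPKM (SD, n = 4 each). Lamp1 had 354, 327, 351 and 338 FPKM in FG and 366, 322, 306 and 310 FPKM in SG, the highest value being that of SG 101 (log2 difference -0.074, adjusted p = 0.564). Lamp2, which also takes part in chaperone-mediated autophagy, had 71.1, 81.7, 70.7 and 74.2 FPKM in FG and 70.7, 83.6, 83.2 and 71.9 FPKM in SG (log2 difference 0.053, adjusted p = 0.71). For Lamp1, 3 SG values lay below and 1 above all FG values, and for Lamp2 the groups overlapped, with SG 103 and SG 104 above all FG values. Mcoln1, the lysosomal calcium channel, had 19.8, 18.7, 21.0 and 20.0 FPKM in FG and 19.8, 18.0, 19.3 and 14.5 FPKM in SG (log2 difference -0.15, adjusted p = 0.338). Npc1 and Npc2, which export cholesterol from the lysosome, and Scarb2, the receptor that delivers glucocerebrosidase, had log2 differences of -0.16, -0.14 and -0.088, and of 0.0071, 0.031 and 0.084 after median-ratio scaling.

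Macrophages are rich in lysosomes, and their markers are given beside these values. The 13 macrophage and Kupffer cell markers, all of them tested, summed to 406, 318, 484 and 308 FPKM in FG 93, 94, 95 and 96 and to 521, 333, 264 and 260 FPKM in SG 101, 103, 104 and 105. Of them 0 were called by limma, 0 had an unadjusted p below 0.05 and limma voom called 0. In a comparison made after the values had been seen, FG 93 and FG 95, the FG libraries with the higher sums, were also the 2 FG libraries with the higher values of Ctsd, Hexa, Lipa and Sqstm1, and SG 101, with the highest sum of SG, had the highest SG values of Ctsd and Hexa, while those of Lipa and Sqstm1 were in SG 103. FG 93 and FG 95 were likewise the 2 highest FG libraries for Tfe3, Atg13, Wipi1 and Map1lc3a, and not for Ulk1, Becn1, Lamp2 or Ctsl. The order was thus not particular to the genes named first. The part of these cells in the results was not tested. Sinusoidal endothelial markers summed to 121 to 144 FPKM in FG and 96.8 to 108 FPKM in SG, with 2 of 8 lower. These were Clec4g (means of 51.6 and 34.7 FPKM) and Fcgr2b (33.3 and 27.1 FPKM). Neither was called after median-ratio scaling (limma adjusted p = 0.0625 and 0.384). Fcgr2b also lost the call in all 8 fits without 1 library, and Clec4g without FG 93. The log2 differences of the remaining endothelial markers ran from -0.32 to 0.24. Stellate cell markers summed to 77.7 to 127 and 75.0 to 98.6 FPKM, with 0 of 7 tested genes called by limma, 0 at an unadjusted p below 0.05 and 0 by limma voom. Cholangiocyte markers summed to 21.9 to 27.7 and 13.0 to 19.1 FPKM, and lymphocyte and neutrophil markers to 3.45 to 7.59 and 3.83 to 4.84 FPKM. Of the 2 tested cholangiocyte markers, 1 was called lower (Spp1), with overlapping groups, and it lost the call after median-ratio scaling. In the lymphocyte and neutrophil list, S100a9 had means of 1.68 FPKM in FG and 0.844 FPKM in SG. Its FG libraries, where it is high, were enough to pass the filter on low values, and its fewest fragments in a library were 9. These S100a9 values are therefore a description, and no test is given. No marker was at 0 in all libraries.

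Other genes of the pathway were read from lists written beside the 44, and their counts and medians stand against 15.6% lower, 3.73% higher, 35.6% at an unadjusted p below 0.05 and a median of -0.135 over all tested genes. Of 19 tested further autophagy core genes 4 fell and 0 rose, with a median log2 difference of -0.15 (limma voom also 4 and 0, and 7 at an unadjusted p below 0.05 in either direction). Atg10, the E2-like enzyme for ATG12, is 1 of these 4 and had means of 2.01 ± 0.302 FPKM in FG and 1.02 ± 0.187 FPKM in SG. It passed the filter on low values only with the FG libraries, where it is high. Its values are therefore a description, no test is given, and its fewest fragments in a library were 61. Ambra1, a regulator of beclin 1, fell from 7.30 ± 0.744 to 5.06 ± 0.175 FPKM (SD, n = 4 each, limma adjusted p = 0.0135, and 0.0624 after median-ratio scaling). Rubcn, which restrains autophagosome maturation, and Uvrag, a partner of beclin 1, fell with limma adjusted p of 0.0348 and 0.0385 (0.14 and 0.209 after median-ratio scaling), Rubcn with overlapping groups. Among the fits lacking 1 library, Rubcn kept the call without FG 96 or SG 101 and Uvrag without SG 104. Of 16 selective autophagy receptors, with a median of -0.036, 1 rose and 0 fell (5 at an unadjusted p below 0.05; limma voom also 1 and 0): Ncoa4, which carries ferritin to the lysosome, from 20.4 ± 1.02 to 27.4 ± 4.43 FPKM (adjusted p = 0.04, kept only without SG 101 among the fits lacking 1 library, and 0.0246 after median-ratio scaling). Of 14 genes of autophagosome fusion, with a median of -0.27, 3 fell and 0 rose (7 at an unadjusted p below 0.05; limma voom 4 and 0). They were the SNARE genes Vti1b and Snap29 and the tethering subunit gene Vps16, each no longer called in 6 of the 8 fits without 1 library nor after median-ratio scaling (adjusted p = 0.247, 0.27 and 0.17).

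Of 34 tested further lysosomal enzymes 3 fell and 0 rose, with a median of -0.14 (10 at an unadjusted p below 0.05, and 3 and 0 with limma voom). Arsa, arylsulfatase A, which desulfates sulfatide, had 27.9, 28.5, 30.0 and 26.0 FPKM in FG and 12.8, 11.2, 14.0 and 9.27 FPKM in SG. Its SG libraries all lay far below its FG libraries (log2 difference -1.20, SE 0.122, adjusted p = 0.000993; 0.00189 after median-ratio scaling). Tpp1, a lysosomal tripeptidase, fell from 28.0 ± 1.08 to 21.8 ± 1.44 FPKM (0.0197; lost without FG 93, FG 95 or SG 103). Gm2a, the GM2 activator, fell from 33.5 ± 3.63 to 23.0 ± 4.97 FPKM (adjusted p = 0.0335), with overlapping groups, and of the fits lacking 1 library kept the call only without FG 94 or SG 101. Tpp1 and Gm2a were not called after median-ratio scaling (0.191 and 0.18).

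Of 18 tested further lysosomal membrane and sorting genes, with a median of -0.27, 5 fell (Laptm4b, Clcn7, Cd63, Ctns and Slc17a5). Laptm4b, a lysosomal membrane protein, fell from 13.0 ± 2.13 to 7.48 ± 1.23 FPKM (SD, n = 4 each, limma adjusted p = 0.0105; 0.0377 after median-ratio scaling), and Clcn7, the lysosomal chloride-proton exchanger, from 11.6 ± 0.952 to 8.17 ± 0.952 FPKM (0.017; lost without FG 93). Cd63, a tetraspanin of late endosomes, fell from 12.5, 5.35, 12.5 and 5.74 FPKM to 3.47, 3.61, 2.55 and 3.48 FPKM (adjusted p = 0.0194; lost without FG 93 or SG 104, kept after median-ratio scaling at 0.0399). Its 2 highest values were in FG 93 and FG 95, the libraries named above for their macrophage marker sums and for the order of other genes. Ctns, the cystine exporter, fell with an adjusted p of 0.0211 and was not called without FG 93, FG 96, SG 103, SG 104 or SG 105. Slc17a5, the sialic acid exporter, lost the call in 7 of the 8 fits lacking 1 library, and kept it without SG 103. After median-ratio scaling Clcn7, Ctns and Slc17a5 had limma adjusted p of 0.0926, 0.122 and 0.162.

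Of the further V-ATPase subunits, Atp6v0b fell from 36.2 ± 3.14 to 27.7 ± 2.02 FPKM (SD, n = 4 each, limma adjusted p = 0.0246; 0.158 after median-ratio scaling, and lost without FG 93, FG 95, SG 103 or SG 105). Atp6v0d2, an isoform of the d subunit known from osteoclasts and macrophages, had 0.148, 0.296, 0.234 and 0.106 FPKM in FG and 2.19, 1.40, 1.84 and 6.94 FPKM in SG. Every SG library was above every FG library, and SG 105 was highest by a wide margin. The gene passed the filter on low values only through the SG libraries, where it is high, so these values are a description and no test is given. Its fewest fragments in a library were 17. Its paralog Atp6v0d1, above, had a log2 difference of -0.091.

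Of 34 tested genes of mTORC1, AMPK and transcriptional control 6 fell (Fnip2, Prkab1, Prkaa2, Nprl3, Flcn and Prkag1) and 0 rose, with a median of -0.21 (17 at an unadjusted p below 0.05, and 8 and 0 with limma voom). Fnip2, a folliculin partner that acts on RagC and thereby on TFEB and TFE3, fell from 3.53, 3.32, 2.92 and 3.91 FPKM to 2.08, 1.70, 1.73 and 1.20 FPKM (log2 difference -0.73, SE 0.124, adjusted p = 0.00735). Its groups lay well apart, and the call held after median-ratio scaling (0.018). Of the AMPK subunits, Prkab1 fell from 15.2 ± 1.32 to 10.7 ± 0.456 FPKM (SD, n = 4 each, limma adjusted p = 0.00963) and Prkaa2, the catalytic alpha-2 subunit, from 15.2 ± 3.13 to 9.0 ± 1.07 FPKM (0.0146; 0.0298 after median-ratio scaling). Nprl3, a subunit of the GATOR1 complex that inhibits mTORC1, fell from 5.59 ± 0.288 to 3.98 ± 0.27 FPKM (0.0149). Prkab1, Nprl3, Prkag1 and Flcn lost the call after median-ratio scaling (limma adjusted p = 0.0706, 0.0648, 0.0933 and 0.147), which left 2 of the list lower and 1 higher. Flcn also lost it in all 8 fits without 1 library (adjusted p up to 0.0959).

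The sources used here do not state the strand setting of the counting, and reads of genes that overlap cannot be told apart. In the GENCODE annotation, 34.4% of the exon bases of Ctsd are shared with Gm49369 on the same strand. Ctsl shares 26.8% with Gm47123 on the opposite strand and 6.09% with Gm49230 on the same strand. None of these overlapping genes is among the deposited values, so their levels are not known here. Of the other called genes, Hexa shares 12.8% with Tmem202, which had a mean of 0.0691 FPKM, Glb1 5.49% with Tmppe (1.40 FPKM), and Atp6v1h 1.3% with Rgs20 (0.00691 FPKM).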

How the data were processed

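Per the labels' protocols, liver RNA was isolated with TRIzol and mRNA-enriched libraries were sequenced from both ends (Illumina NovaSeq). The submitters' processing notes name fastp, HISAT2, HTSeq and DESeq2 and the builds GRCm38 and mm10, with versions not given in the sources used here; HISAT2 made the alignments, per the series text. The deposited values are FPKM made by the authors for 21358 genes in 8 libraries. FPKM are not counts, so log2(FPKM + 1) was fitted with limma 3.58.1 in R 4.3.3 (empirical Bayes with a mean-variance trend, no covariates, filter of at least 1 FPKM in at least 4 libraries). An exact permutation test over 70 assignments was computed per gene. Whole fragments were recovered for 100% of genes (tolerance 0.02 fragments), with totals fixed by 253 genes whose annotated GENCODE vM21 length matched; they served depth and an added limma voom fit. The steps were tested on simulated data. Positions are RefSeq GRCm38.p6, with 20804 gene IDs matched. Of 252 genes in all lists, 251 were found.

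Members and lists were chosen with earlier results of these data known. Values are given in every library for called members and for 12 genes chosen whatever their values, and of other lists for up to 4 called genes with the smallest p; Slc17a5, Flcn and Prkag1 are named beside these to complete a count, after their values were seen. One result among the other lists is not reported here. Alternatives covered pseudocount, filter, scaling, variance model, library weights, threshold and leaving out each library.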

Additional observations from a re-analysis of the deposited data

Results flagged for a closer look

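Of 88 sets of 4 libraries (44 genes in 2 groups), 4 held a library whose distance to its nearest neighbour, as a share of the whole range, exceeded Dixon's critical value, where chance flags about 1 set in 20. The number flagged was thus near that chance rate. All 4 were in SG and at the upper end. Ctsl was at 174 FPKM in SG 105 against 131 to 134 in the other SG libraries. SG 101 stood apart for Gabarap (203 FPKM against 158 to 163), Neu1 (9.53 against 7.54 to 7.87) and Atp6v0d1 (51.3 against 41.2 to 42.7).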

How the results depend on the processing

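The number of genes called over the whole table was 1912 (368 higher and 1544 lower). It was 1133 with no filter on low values, 984 after median-ratio scaling (516 higher and 468 lower), 991 after trimmed-mean scaling, 1078 after quantile normalization, 2922 at an adjusted p below 0.1 and 415 below 0.01, and 791 to 2355 without 1 library. Of the 44 genes, those called lower numbered 9, and 5 with no filter, 1 after median-ratio or trimmed-mean scaling, 3 after quantile normalization, 1 at an adjusted p below 0.01 and 2 to 11 without 1 library. Those called higher numbered 1 (Ctsl), and 2 after median-ratio or trimmed-mean scaling, with library weights or at an adjusted p below 0.1 (Ctsl and Map1lc3b), 0 with no filter, without the mean-variance trend, with limma voom (an alternative chosen after seeing the data) or below 0.01, and 0 to 1 without 1 library; after quantile normalization the 1 gene was Map1lc3b and not Ctsl. The median of the autophagy machinery was -0.008, -0.017 and -0.047 and that of the lysosomal proteins 0.014, 0.0052 and -0.046 after median-ratio, trimmed-mean and quantile scaling, and -0.20 to -0.12 and -0.20 to -0.11 without 1 library. Why scaling moved these values was not tested beyond the shift of the median of all genes. Pseudocounts of 0.1 and 0.01 kept all 10 calls. Tfe3 was called in the main analysis and in all 18 refits at a threshold of 0.05, and 29 of the 44 genes were called in none of these. No paired analysis was possible because the groups share no replicate numbers.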
